A study of Mus musculus with 6 samples.

Results

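Luteal differentiation genes are followed here through 6 genes, Akr1c18, Ptgfr, Prlr, Rgcc, Parm1 and Cited4, and the members are all probe sets whose single gene symbol in the platform annotation is one of them. These were 12 of 45037 probe sets without controls and covered 5 of 18193 genes: Ptgfr had 5 probe sets, Rgcc, Parm1 and Cited4 had 2 each, and Akr1c18 had 1. No probe set carried the symbol Prlr alone in the annotation used here, so the prolactin receptor is named without values. The study measured, on 1-colour arrays, RNA of Gli1-lineage cells sorted by tdTomato fluorescence from ovaries of female mice, in 3 mesonephros-derived and 3 ovary-derived samples that the titles call theca, and the comparison addresses how cells of the 2 origins differ in the adult ovary. Every mouse was of strain 129S6/SvEvTac, carried Gli1-CreERT2 and Rosa-LSL-tdTomato, received tamoxifen and was 2 months old at collection. For mesonephros-derived cells tamoxifen was given at E12.5, then E14.5 and last E16.5, and for ovary-derived cells through the nursing dam between P1 and P3. The Cre is driven by Gli1, so any cell with active Gli1 at those times could be labelled, and origin and time of labelling cannot be told apart. The labels do not say how many animals made up a sample, and the p-values here cover the variation among these 6 samples alone, part of which may be technical.

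After ovulation the follicle wall turns into the corpus luteum, whose cells make progesterone from cholesterol. Prolactin acting through its receptor keeps the rodent corpus luteum producing progesterone, and prostaglandin F2-alpha acting through the receptor encoded by Ptgfr ends that phase. Akr1c18 encodes 20-alpha-hydroxysteroid dehydrogenase, which inactivates progesterone and appears when the corpus luteum regresses. Rgcc, Parm1 and Cited4 are known as genes induced by luteinizing hormone (LH) or chorionic gonadotropin in ovulatory follicles, and theca as well as granulosa cells contribute to the corpus luteum.

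The measured members whose every probe set had an unadjusted p under 0.05 (limma) are Akr1c18, with 1 probe set, and Rgcc, with 2. They changed in opposite directions, and Akr1c18 was below the floor for dim signals in all ovary-derived cells. Of all probe sets, 11.3% had an unadjusted p under 0.05, and neither Akr1c18 nor Rgcc passed at an adjusted p of 0.05. Their promoters are shown, as 250 bases before the transcription start from RefSeq on build GRCm38.p6, with GGGCGG, the core of an Sp1 site, in capitals on either strand. The Akr1c18 promoter lies at chr13:4150647-4150896 and the Rgcc promoter at chr14:79301636-79301885, both on the minus strand.
Akr1c18: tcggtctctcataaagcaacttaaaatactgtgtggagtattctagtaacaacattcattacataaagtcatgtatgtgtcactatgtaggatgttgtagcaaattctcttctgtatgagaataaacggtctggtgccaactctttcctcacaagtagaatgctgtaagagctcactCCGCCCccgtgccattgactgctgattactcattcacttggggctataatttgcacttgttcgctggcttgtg
Rgcc: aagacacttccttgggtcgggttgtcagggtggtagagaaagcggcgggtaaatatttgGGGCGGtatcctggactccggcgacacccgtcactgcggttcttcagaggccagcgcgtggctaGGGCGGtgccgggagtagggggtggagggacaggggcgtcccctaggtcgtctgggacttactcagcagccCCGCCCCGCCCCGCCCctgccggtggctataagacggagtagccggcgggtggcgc
The Rgcc stretch held 5 matches to GGGCGG, of which 3 form one run and share their end letters, and the Akr1c18 stretch held 1. Cited4 held 3, Ptgfr 1 and Parm1 0 in the same window. Of 32841 mouse promoter stretches of this length, 32.7% held at least 1 match, 8.47% held 3 or more and 1.93% held 5 or more. AAGGTCA, the site of the NR5A receptors that drive steroid enzymes, was found in 4.08% of all stretches, and TTCNNNGAA, the site of the STAT factors that prolactin activates, in 7.02%. TGACGTCA (CRE) was found in 1.55% and TGANTCA (AP-1) in 6.75%. None of these 4, searched on both strands, was found in the stretches of the 5 measured genes. Prlr, which has no values here, has several transcription starts. Its stretches held a match to the STAT site at −110 to −102 and, before a different start, a match to the AP-1 site at −20 to −14. A match is a run of letters and was not set against the expression values.

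The arrays themselves differed in ways that touch the members. Over all probe sets without controls, ovary-derived arrays correlated with each other at 0.963 to 0.973 and mesonephros-derived ones at 0.844 to 0.896. Mesonephros-derived replicate 3 was closer to the ovary-derived arrays (0.946 to 0.950) than to its own group. The mean of 27 poly-A control probe sets, transcripts added in known amount to RNA, was 11.7-fold, 11.6-fold and 2.28-fold the ovary-derived mean on the mesonephros-derived arrays (replicates 1, 2 and 3), and 0.720-fold, 0.852-fold and 1.63-fold on the ovary-derived ones. The mean of 9 hybridisation control probe sets was also higher there, at 3.47-fold, 2.74-fold and 1.40-fold its ovary-derived mean. On the ovary-derived arrays it was 0.841-fold, 0.953-fold and 1.25-fold. Of 8 theca markers tested, 4 were higher and 4 lower in mesonephros-derived cells, with a median of 0.15 log2 units. After quantile normalization 3 were higher and 5 lower, with a median of −0.16. As a sum the 8 markers were bright in both groups, between 69700 and 79550 in mesonephros-derived and between 48080 and 50320 in ovary-derived cells. Acta2, also a smooth muscle gene, gave 21590 to 31905 of that in mesonephros-derived and 10857 to 13016 in ovary-derived cells, at 1.23 ± 0.19 log2 units (SE, limma adjusted p = 0.0865). Gli1, whose promoter drives the Cre, read 133, 579 and 415 in mesonephros-derived cells, against 703, 560 and 487 in ovary-derived cells. Lhcgr and Insl3, further theca markers, carried no single symbol here.

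Tests of both genes and probe sets were made with limma on log2(signal + 16). Rgcc, Parm1 and Cited4 were tested at their brightest probe set among 11703 genes, since these passed a floor on dim probe sets, a signal of 99.4. All 12 probe sets were also tested among all 45037, with no floor. Akr1c18 and the brightest Ptgfr probe set, with average signals over all arrays of 49.4 and 93.8, lay under the floor and were tested only in the second way. Cited4, at 119.5, passed through its mesonephros-derived arrays alone. At an adjusted p of 0.05, 0 of 3 members were called in the gene test, in which 0.0427% of all genes were called (0.0342% higher and 0.00854% lower), and 0 of 12 probe sets among all probe sets, of which 0.00444% were called. At an unadjusted p of 0.05 these counts were 1 (Rgcc; 13.7% of all genes) and 4 (11.3% of all probe sets). The groups did not overlap for 8 member probe sets: 5 lay higher and 3 lower in mesonephros-derived cells, where 8.22% of all probe sets lay higher and 10.6% lower without overlap. Probe sets of 1 gene read the same RNA, so these are not 12 independent counts.

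**Figure D1:**
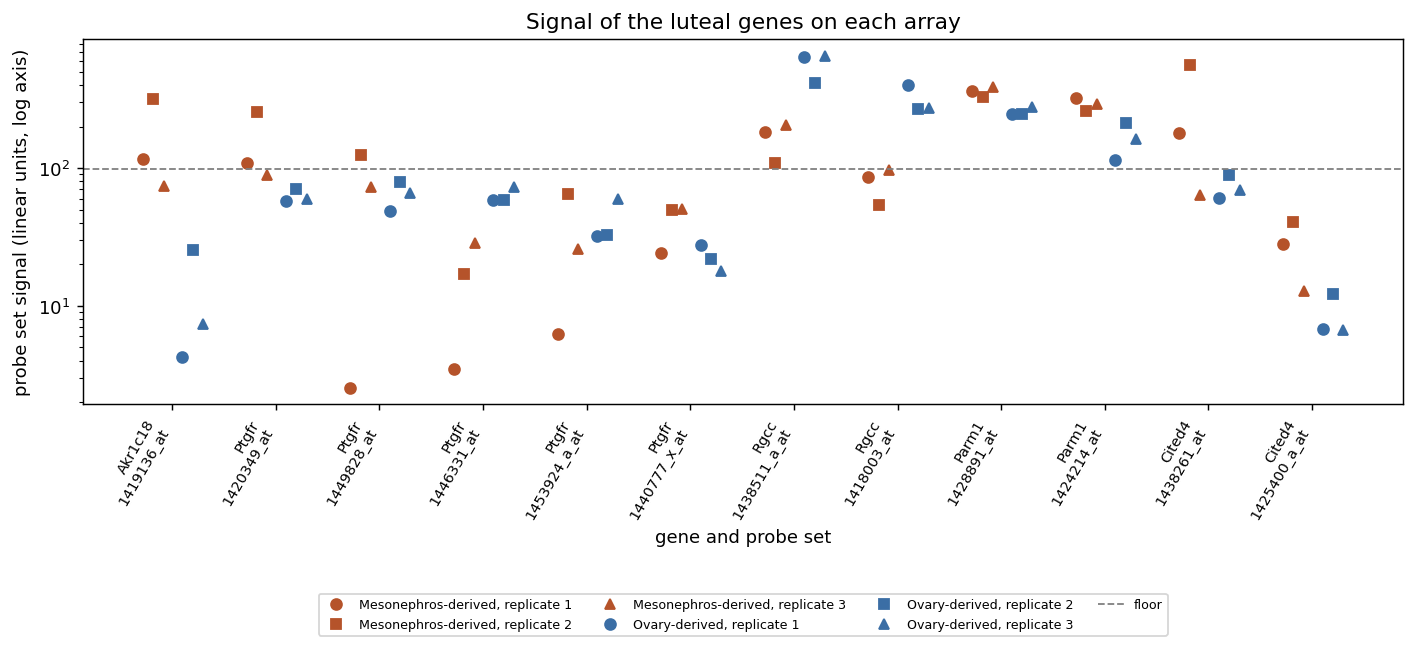
Signal of each of the 12 probe sets (linear units on a log axis) on the 3 mesonephros-derived arrays (left of each label) and the 3 ovary-derived arrays (right of it), 1 point per array and 1 shape per replicate number; the dashed line is the floor of 99.4. Both Rgcc probe sets lie lower and Akr1c18 and both Parm1 probe sets higher on every mesonephros-derived array than on any ovary-derived one, and the Ptgfr probe sets go different ways.

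Akr1c18, which removes progesterone, had signals of 117, 319 and 73.8 in mesonephros-derived replicates 1, 2 and 3, against 4.27, 25.3 and 7.38 in ovary-derived replicates 1, 2 and 3. The groups did not overlap. All 3 ovary-derived arrays and mesonephros-derived replicate 3 were below the floor, so the probe set was measured above it on 2 arrays of 6. Mesonephros-derived cells averaged 170 ± 131 and ovary-derived cells 12.3 ± 11.3 (SD, n = 3 each). The mean mesonephros-derived log2 level was 1.38-fold the floor. The fitted log2 change was 2.56 ± 0.60 (SE; limma over all probe sets, adjusted p = 0.235, unadjusted p = 0.00175). Leaving out mesonephros-derived replicate 2, where the gene was brightest, gave 2.02, and the change stood at 1.43 with the poly-A control level as a covariate. That level was higher on every mesonephros-derived array than on any ovary-derived one, so a fit with it cannot fully tell it apart from origin. Akr1c18 belongs to a family of closely similar aldo-keto reductases, and whether its probe set also reads a relative was not tested. In these bulk samples, for this and every other gene, fewer cells of a type and less RNA per cell cannot be told apart.

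Among those relatives, Akr1c6, Akr1c20 and Akr1c21 were below the floor on every array, and Akr1c12, Akr1c13 and Akr1c19 were too dim to be tested. The 2 that were tested did not pass, and both stood below 0 after quantile normalization, with a median of −0.30. Akr1c14, which reduces steroid ketones, stood at −0.24 ± 0.25 log2 units (SE) and Akr1cl at 0.29 ± 0.22 (limma adjusted p = 0.697 and 0.582), both with overlapping groups. Another Akr1cl probe set stood at −0.36.

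Ptgfr, the receptor for prostaglandin F2-alpha that couples to Gq, gave no single direction. Its brightest probe set, 1420349_at, read 109, 258 and 89.8 in mesonephros-derived replicates 1, 2 and 3, against 58.0, 70.0 and 60.1 in the ovary-derived replicates. These groups did not overlap, but all ovary-derived arrays were below the floor, and the log2 change of 0.97 ± 0.53 (SE, adjusted p = 0.513 over all probe sets) was 0.55 without mesonephros-derived replicate 2. The mean mesonephros-derived log2 level was 1.33-fold the floor, with replicate 3 itself below it. Probe set 1446331_at went the other way, at 3.47, 17.0 and 28.7 in mesonephros-derived cells against 58.6, 58.3 and 73.0 in ovary-derived cells. It did not overlap either, with a log2 change of −1.37 ± 0.45 (SE, adjusted p = 0.344), and lay below the floor on all 6 arrays, so no fold is given. The remaining 3 probe sets overlapped between the groups. Probe set 1449828_at read 2.54, 125 and 72.9 in mesonephros-derived cells, against 49.0, 79.6 and 66.5 in ovary-derived cells, a log2 change of −0.38 ± 0.73 (SE) that was 0.49 without mesonephros-derived replicate 1. Probe set 1453924_a_at read 6.23, 64.5 and 25.7 in mesonephros-derived cells, against 32.3, 32.7 and 59.4 in ovary-derived cells, and its −0.42 ± 0.53 was 0.05 without that array. On both, the dim array was mesonephros-derived replicate 1. Probe set 1440777_x_at, whose suffix marks possible cross-hybridisation, read 24.4, 49.4 and 50.5 in mesonephros-derived cells, against 27.8, 21.9 and 18.0 in ovary-derived cells (0.55 ± 0.41 SE). The mean over all 5 Ptgfr probe sets changed by −0.13 log2 units.

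Rgcc, a regulator of the cell cycle that is also expressed by endothelial cells, was the only measured member whose probe sets all lay lower in mesonephros-derived cells. Probe set 1438511_a_at read 183, 109 and 206 in mesonephros-derived replicates 1, 2 and 3, against 643, 416 and 656 in the ovary-derived replicates. All 6 arrays were above the floor, and the groups did not overlap. Mesonephros-derived cells averaged 166 ± 50.9 and ovary-derived cells 572 ± 135 (SD, n = 3 each), a log2 change of −1.71 ± 0.37 (SE; 95% interval −2.55 to −0.86; limma over all genes, adjusted p = 0.187, unadjusted p = 0.00139), which ranked 87 of 11703 by p. The second probe set, 1418003_at, read 86.3, 53.7 and 96.4 in mesonephros-derived cells, against 400, 271 and 273 in ovary-derived cells. It gave −1.81 ± 0.45 (SE, adjusted p = 0.257 over all probe sets), and with all mesonephros-derived arrays under the floor it was at least 2.82-fold lower. Leaving out any 1 array kept the first probe set between −1.91 and −1.45, and the poly-A covariate gave −1.33 ± 0.69 (SE).

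Endothelial markers were also lower in mesonephros-derived cells, in 12 of 13 tested, with 0 past the threshold. Of 14 with a probe set, 0 were below the floor on every array. The 14 markers summed to 4843 to 9742 in mesonephros-derived samples and 7694 to 11909 in ovary-derived samples. Sox18, a transcription factor of vessels, stood at −1.52 ± 0.39 log2 units and the vascular receptor Robo4 at −1.73 ± 0.47 (SE, limma adjusted p = 0.229 and 0.246). Set against the average of the ovary-derived arrays, the tested endothelial markers stood at a mean of −1.68, −0.07 and −1.36 log2 units on mesonephros-derived arrays 1, 2 and 3. On the same scale Rgcc stood at −1.54, −2.21 and −1.37 there. The markers behind the mean on array 2 went different ways. Sox18 read 922 and Robo4 96.6 there, below every ovary-derived array, while Tek read 1010 and Cldn5 1094, above every ovary-derived array. The part of endothelial RNA in the Rgcc difference was not tested.

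Parm1, a mucin-like membrane protein known from the rat as induced around ovulation, lay higher in mesonephros-derived cells on both probe sets, by a small amount. Probe set 1428891_at read 366, 327 and 390 in mesonephros-derived replicates 1, 2 and 3, against 247, 246 and 280 in the ovary-derived replicates. The groups did not overlap and were tight, at 361 ± 31.7 in mesonephros-derived samples against 257 ± 19.7 in ovary-derived samples (SD, n = 3 each), with all arrays above the floor. The log2 change of 0.46 ± 0.31 (SE; 95% interval −0.24 to 1.16) did not pass (limma over all genes, adjusted p = 0.523). Probe set 1424214_at read 322, 262 and 292 in mesonephros-derived cells, against 115, 212 and 163 in ovary-derived cells, again without overlap, and gave 0.81 ± 0.40 (SE, adjusted p = 0.475 over all probe sets). The first probe set stayed between 0.41 and 0.53 when any 1 array was left out, and Parm1 stood at 0.54 ± 0.55 (SE) with the poly-A covariate.

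Cited4, a coactivator that binds CBP and p300, rested on 2 arrays. Probe set 1438261_at read 181, 562 and 63.6 in mesonephros-derived replicates 1, 2 and 3, against 60.4, 89.2 and 69.3 in the ovary-derived replicates. Mesonephros-derived replicate 3 lay within the ovary-derived range, and all 3 ovary-derived arrays were below the floor. Mesonephros-derived cells averaged 269 ± 260 and ovary-derived cells 73.0 ± 14.8 (SD, n = 3 each). The mean mesonephros-derived log2 level was 1.80-fold the floor, but replicate 3 was itself below it, so this sets no lower bound on the difference. The log2 change was 1.24 ± 0.68 (SE; limma over all genes, adjusted p = 0.443). Leaving out mesonephros-derived replicate 2 gave 0.50 and leaving out the third gave 1.93. With the poly-A covariate the estimate was negative, at −0.77 ± 1.05 (SE). The dimmer probe set 1425400_a_at, below the floor on all arrays, read 28.2, 40.6 and 12.9 in mesonephros-derived cells, against 6.84, 12.1 and 6.69 in ovary-derived cells. Its groups did not overlap (0.77 ± 0.36 SE, adjusted p = 0.454 over all probe sets).

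**Figure D2:**
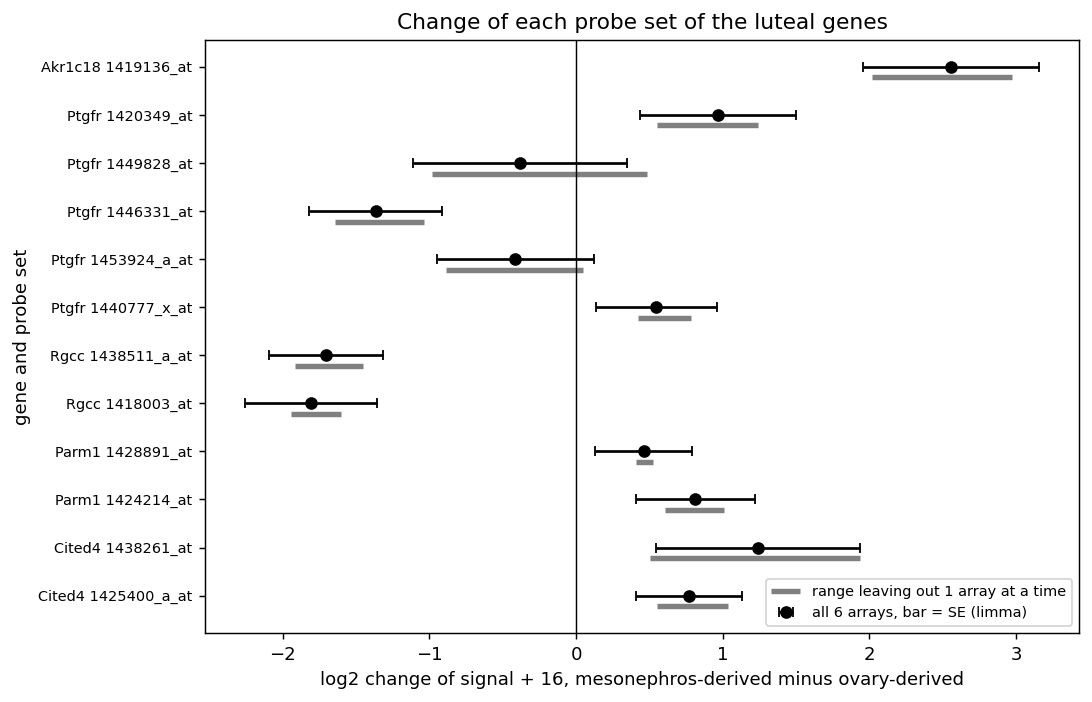
Log2 change of signal + 16 of each probe set, mesonephros-derived minus ovary-derived, from the limma fit over all probe sets (points, all 6 arrays; black bars, SE), with the range when 1 array at a time is left out (grey bars). The Rgcc probe sets stay at −1.45 or below, Akr1c18 stays at 2.02 or above, and 2 Ptgfr probe sets cross 0 when 1 array is left out.

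Mesonephros-derived replicate 2 was the highest or the lowest of its group for 10 of the 12 probe sets: highest for Akr1c18, both Cited4 and 3 Ptgfr probe sets, and lowest for both Rgcc and both Parm1 probe sets. Replicate 3 was so for 9 and replicate 1 for 5, so replicate 2 does not stand apart from replicate 3 by this count. Every probe set has both a highest and a lowest among 3 arrays, so high counts follow in part from the measure. Probe sets of 1 gene are also counted apart. The steroidogenesis list had its highest summed signal on replicate 2, at 44174, next to 30477 on replicate 1 and 34619 on replicate 3, but its mean log2 departure was higher on replicate 3 (0.39) than on replicate 2 (0.32). Cyp11a1, which cleaves the cholesterol side chain, read 2371, 9988 and 7065 in mesonephros-derived replicates 1, 2 and 3, against 2674, 1915 and 2551 in the ovary-derived replicates. Both it and Star were brightest on replicate 2. Star, which brings cholesterol into mitochondria, read 675, 2092 and 1172 in mesonephros-derived cells, against 485, 725 and 764 in ovary-derived cells. Macrophage markers had their highest sum on mesonephros-derived replicate 2: the 13 markers with a probe set summed to 1651, 16809 and 4790 in mesonephros-derived replicates 1, 2 and 3, against 6450 to 10160 in ovary-derived cells, with Cd14 and Itgam below the floor on every array. All 11 tested were lower by the log2 mean and 0 passed, with the receptor Csf1r at −2.88 ± 1.12 and Aif1 at −1.93 ± 0.84 (SE, limma adjusted p = 0.334 and 0.362). Without mesonephros-derived replicate 1 these were −1.26 and −1.004, and other Csf1r probe sets stood at −1.75 and −0.03. Granulosa markers summed to 5970 to 7359 in mesonephros-derived and 5910 to 7342 in ovary-derived cells, with Fshr, the FSH receptor, below the floor on every array. Of 5 tested, 0 passed, with the receptor Amhr2 at −1.71 ± 0.76 and the activin subunit Inhba at 0.72 ± 0.51 (SE, limma adjusted p = 0.365 and 0.544). Amhr2 was −0.84 without mesonephros-derived replicate 1, and its other probe sets stood at 0.08 and −3.09. The part of these cell types in the values of the members was not tested.

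**Figure D3:**
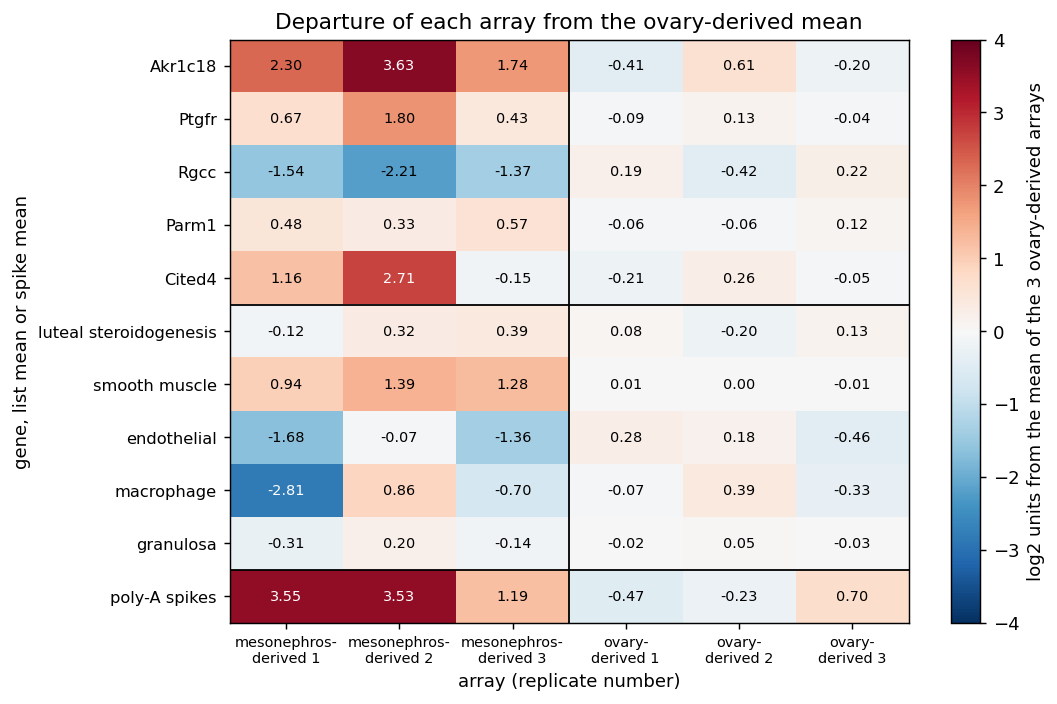
Departure of each array (columns, mesonephros-derived left of the line) from the mean of the ovary-derived arrays, in log2 units: the brightest probe set of each measured member, the mean of the tested genes of 5 lists, and the mean of the 27 poly-A control probe sets. Rgcc is lowest, and Akr1c18, Ptgfr and Cited4 are highest, in mesonephros-derived replicate 2, where the list mean is −0.07 for endothelial and 0.86 for macrophage markers.

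The pathways around the members were followed in 8 gene lists, of which 0 tested genes passed the threshold in either direction. Over all genes tested the median log2 change was −0.08, with 5091 higher and 6612 lower, and 9.56% of genes lay higher and 12.6% lower without overlap. Quantile normalization moved that median to −0.065 and median centring to −0.004. In the luteal steroidogenesis list, 4 of 8 tested genes were higher and 4 lower, with a median of 0.11, and after quantile normalization 3 were higher and 5 lower, with a median of −0.18. Fdx1, the electron donor of the mitochondrial steroid enzymes, did not overlap at 0.96 ± 0.22 (SE, limma adjusted p = 0.212), while Cyp11a1 at 1.22 ± 0.46 and Star at 0.86 ± 0.40 overlapped (0.318 and 0.384). Hsd17b7, known in the rodent corpus luteum for making estradiol, was dimmer without overlap at −0.74 ± 0.35 (adjusted p = 0.387), and its other probe sets stood at 0.06 and −1.01. Outside the list, the androgen enzyme Cyp17a1 stood at 2.67 ± 0.45 (adjusted p = 0.106), without overlap.

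Genes of the response to LH and ovulation split, with 6 of 10 tested higher and 4 lower, and a median of 0.29 (5 and 5 after quantile normalization, with a median of 0.09). Pgr, the progesterone receptor that LH induces before follicle rupture, read 144, 97.7 and 104 in mesonephros-derived replicates 1, 2 and 3, against 431, 516 and 388 in the ovary-derived replicates. These groups did not overlap, at −1.82 ± 0.35 log2 units (SE, limma adjusted p = 0.149), between −1.97 and −1.71 without any 1 array, and another Pgr probe set stood at −0.16. Sfrp4, a Wnt antagonist of the luteal phase in rodents, read 655, 577 and 305 in mesonephros-derived cells, against 190, 145 and 133 in ovary-derived cells. It did not overlap either, at 1.56 ± 0.39 (SE, adjusted p = 0.229). Tnfaip6, which crosslinks the hyaluronan matrix of the ovulating follicle, read 444, 113 and 238 in mesonephros-derived cells, against 89.9, 52.5 and 41.0 in ovary-derived cells. The groups did not overlap, with all ovary-derived arrays below the floor (1.73 ± 0.55 SE, adjusted p = 0.279). Nrip1, a corepressor of nuclear receptors that ovulation requires, stood at −0.36 ± 0.22 with overlapping groups (adjusted p = 0.486).

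In the prolactin signalling list, which holds the receptor's kinase, its transcription factors, feedback inhibitors and the related growth hormone receptor Ghr, 3 of 8 tested genes were higher and 5 lower, with a median of −0.18, and −0.10 under either other scaling. The transcription factor Stat5a, which the receptor activates, stood at −0.35 ± 0.34 log2 units (SE, limma adjusted p = 0.656), and another of its probe sets at −0.89. Of the feedback inhibitors, Socs2 was brighter without overlap at 0.65 ± 0.28 (limma adjusted p = 0.361; 0.33 without ovary-derived replicate 3), while Socs1 at 0.66 ± 0.44 and Socs3 at −1.26 ± 0.57 overlapped (adjusted p = 0.523 and 0.367).

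On the prostaglandin side, 2 of 7 synthesis and transport genes were higher and 5 lower, with a median of −0.49. Ptges, a prostaglandin E synthase, read 692, 1146 and 1155 in mesonephros-derived replicates 1, 2 and 3, against 1738, 1719 and 2071 in the ovary-derived replicates. It did not overlap and stood at −0.91 ± 0.26 log2 units (SE, limma adjusted p = 0.254), with other probe sets at −0.89 and −0.29. Prxl2b, a prostaglandin F synthase, stood at −0.72 ± 0.31 (adjusted p = 0.357), also without overlap. Ptges2, a further E synthase, at 0.47 ± 0.34 and the prostaglandin transporter Slco2a1 at −0.78 ± 0.60 overlapped (adjusted p = 0.562 and 0.580). Of the other prostanoid receptors 1 of 5 was higher and 4 lower, and under both other scalings 2 were higher and 3 lower. Among them were Ptger3 at −1.21 ± 0.52 and 0.75 for another of its probe sets, and Ptgdr at 1.00 ± 0.51 (adjusted p = 0.361 and 0.414). The prostaglandin E receptors Ptger4 and Ptger2 stood at −0.32 ± 0.28 and −0.36 ± 0.42. At their brightest probe sets, the 6 tested genes of the Gq branch that Ptgfr uses had positive values under all 3 scalings, with a median of 0.14, 0.21 after quantile normalization and 0.22 after median centring. They were led by Prkca, a protein kinase C, at 1.29 ± 0.54 (adjusted p = 0.356), with other Prkca probe sets at 0.10 each and overlapping groups. Plcb1, a phospholipase C, stood at 0.81 ± 0.45 with other probe sets at −1.04 and −0.30, and the G protein subunits Gna11 and Gnaq stood at 0.12 ± 0.19 and 0.15 ± 0.25. The other Gna11 probe set stood at −0.22, and the 6 other Gnaq probe sets ranged from −0.62 to 1.11, of which only the one at 1.11 was above 0, so the shared direction rests on the choice of probe set.

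The partners of Cited4 gave values on both sides of 0, 2 of 4 tested higher and 2 lower (1 and 3 after quantile normalization). The relatives Cited1 and Cited2 stood at −1.17 ± 0.57 and 0.46 ± 0.23 log2 units (SE), and the histone acetyltransferases they bind, Ep300 and Crebbp, at −0.56 ± 0.27 and 0.02 ± 0.17 (limma adjusted p between 0.396 and 0.974). Cited2 and Ep300 did not overlap between the groups, and another Cited2 probe set stood at 1.18.

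**Figure D4:**
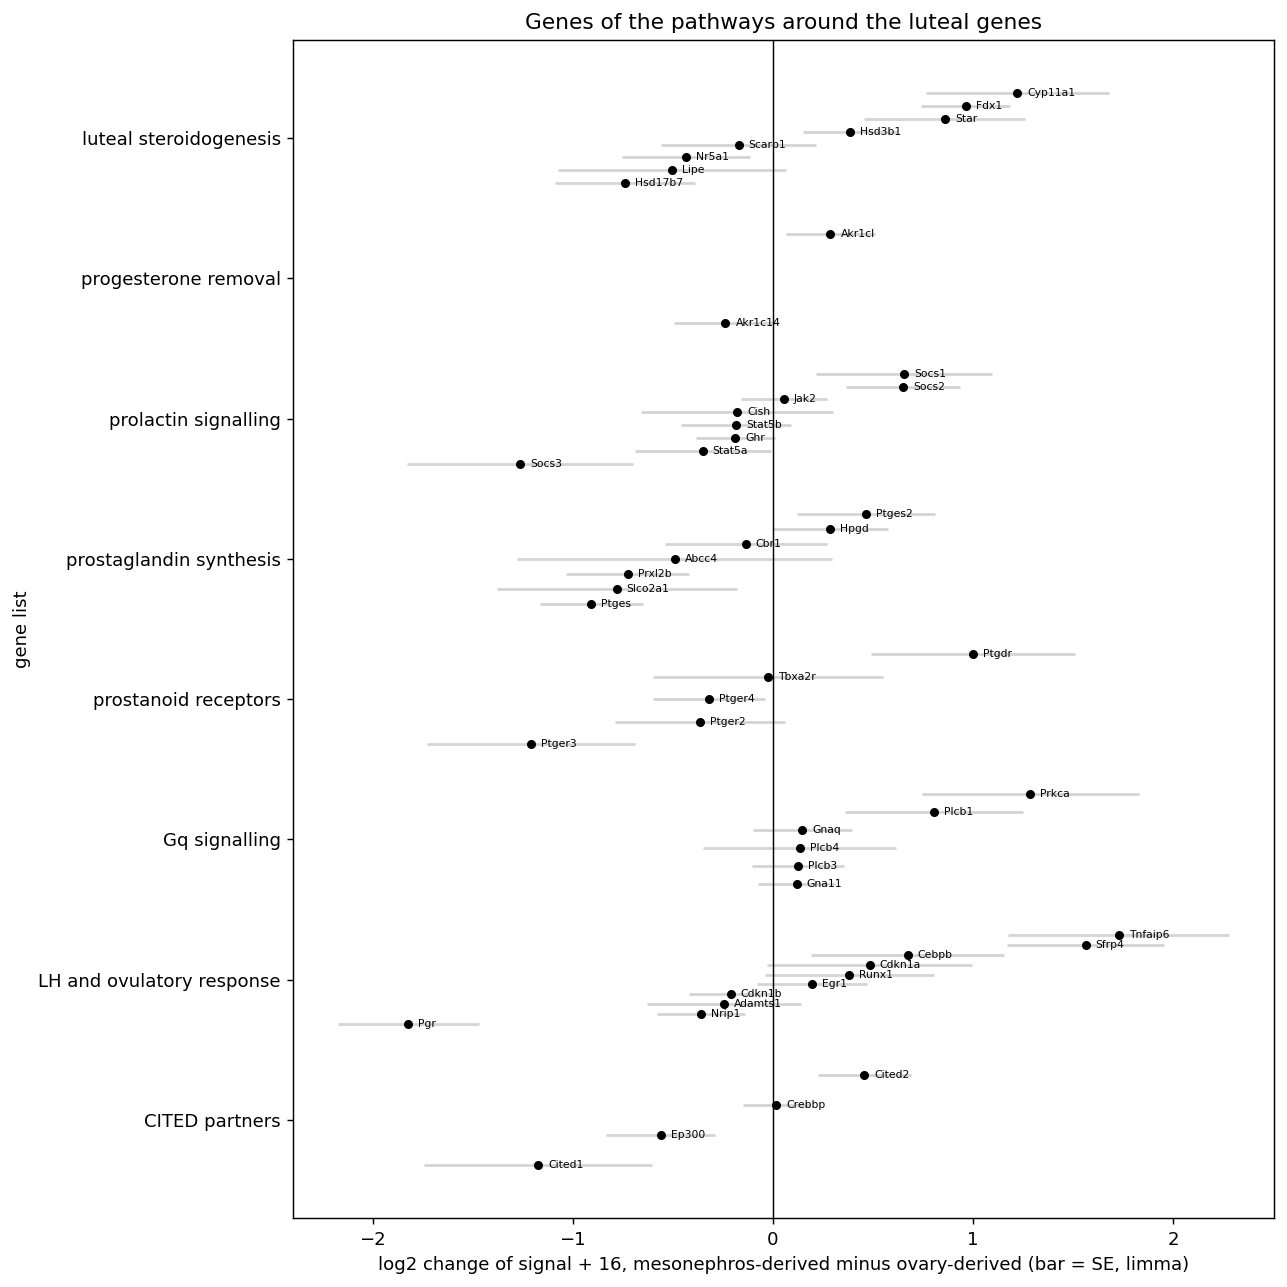
Log2 change of signal + 16, mesonephros-derived minus ovary-derived, of every tested gene in the 8 pathway lists (points; bars, SE from limma over all genes). Pgr lies at −1.82 on the lower side, and Sfrp4 at 1.56 and Tnfaip6, below the floor on all ovary-derived arrays, at 1.73 on the higher side.

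Likeness to the members was measured as the root mean square difference over the 6 arrays between log2 values centred on each gene's own mean. The genes named here were picked by this measure, so high or low arrays shared with a member follow from the choice. Nearest to Rgcc were Nipsnap1, at 0.168 log2 units, and the transcription factor Sox11, at 0.178, where the median over all genes was 0.962. Sox11 read 206, 167 and 274 in mesonephros-derived replicates 1, 2 and 3, against 709, 504 and 661 in the ovary-derived replicates, and was lowest on the same array as Rgcc. Nearest to Cited4 were Spata2l at 0.197 and Stard10 at 0.258 (median 1.13). Stard10 read 375, 1083 and 128 in mesonephros-derived cells, against 128, 135 and 209 in ovary-derived cells, and both shared the Cited4 peak in mesonephros-derived replicate 2. Nearest to Parm1 were Il17rc at 0.055 and Macf1 at 0.071 (median 0.483), both with small changes of 0.47 and 0.43 log2 units.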

How the data were processed

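The values the authors deposited are intensities on a linear scale, 1 per probe set. MAS5 is the tool named, per the submitters' processing notes, whose version was not given in the sources used here. Every array averaged 500 once 2% of values were trimmed from both ends, the mark of a scaling before deposit, so none was added. Per the labels' protocols, 4 microlitres of RNA were amplified from every sample whatever its concentration.

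Of 45101 probe sets, 64 controls were left out. Intensities were taken as log2(signal + 16), which understates changes of dim genes. Each gene was represented by its brightest probe set over all arrays, and genes below the 40th percentile of probe set means (99.4) were not tested. No detection calls were used. A fold against the floor, or one given as at least, sets the bright group's mean log2 level against this floor. It does not cover the spread among arrays. The group difference was fitted in limma 3.58.1 (R 4.3.3, eBayes with an intensity trend) with Benjamini-Hochberg adjustment over all 11703 genes, and separately over all 45037 probe sets. Changes are mesonephros-derived minus ovary-derived. The code was tested on simulated data.

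The 6 members and the 17 gene lists were chosen with earlier results of these data known. All member probe sets were named, with up to 4 genes of smallest p in each pathway list, up to 2 in each cell type list, Cyp17a1, Star, Cyp11a1 and Lhcgr, and the 2 genes nearest in pattern to each tested member. Gli1 was named after its values were seen, as the driver of the Cre. Precision is limited by having only 3 arrays in each group. Alternatives covered the pseudocount, the floor, the normalization, the choice of probe set, the fit, the poly-A controls and each array in turn. Left-out-array values keep the probe sets and genes of the full set.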

Additional observations from a re-analysis of the deposited data

How the results depend on the processing

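Of the members, 0 were called under any alternative tried, but Akr1c18 and Ptgfr were tested only in the alternative without a floor. The number of genes called was 5 (4 higher, 1 lower), and 3 with a pseudocount of 1, 2 (2 higher, 0 lower) after median centring, 8 with probe sets averaged per gene, 129 with array weights, and 0 in limma without the intensity trend or with the poly-A covariate, where 1504 and 311 genes had an unadjusted p under 0.05. Leaving out 1 array gave 0 to 58 calls: 58 when the first mesonephros-derived sample was dropped, 3 when the second was, and 0 when the third or any ovary-derived sample was. Akr1c18 stood at 3.75 with a pseudocount of 1, 1.49 with one of 64 and 1.43 with the poly-A covariate. Ptgfr stood at −0.13 with its probe sets averaged and at 0.21 with the poly-A covariate. Cited4 changed sign to −0.77 ± 1.05 (SE) with that covariate, whose level did not overlap between the groups. The cause was not tested. With averaged probe sets and with a floor at the 60th percentile Cited4 fell under the floor. Rgcc (−1.91 to −1.33) and Parm1 (0.40 to 0.64) kept their direction under all 19 alternatives, at adjusted p-values of 0.0878 to 1 and 0.339 to 1. Several of these could not move the estimates of Rgcc and Parm1. They were the floors, the removal of _x_at and _s_at probe sets, the eBayes settings and the replicate block. Counts of member probe sets without overlap, taken without 1 array after the data were seen, were 5 to 6 higher and 3 to 4 lower, while the share over all probe sets in either direction was 25.0% to 37.5%, against 18.8% with all arrays, so these counts are not like for like. Same-numbered samples of the 2 groups deviated together at correlations of 0.004 to 0.042, so the numbers were not taken to pair them. With the replicate block 4 genes were called, Rgcc had an adjusted p of 0.221, and 2 of 3 mesonephros-derived samples correlated best with their own number. Most member probe sets are dim, so their values are limited by signal over background.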

Other observations

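Markers of cell types that the report does not describe were mostly dim in both groups. Of 9 oocyte markers, 6 (Zp1, Zp2, Zp3, Gdf9, Bmp15 and Oosp1) lay below the floor on every array, and of 8 lymphoid markers with a probe set 6 did, among them the T cell markers Cd3e and Cd3g. Of 8 surface epithelial markers, 0 were bright enough on average to be tested, with Epcam, Krt8, Cdh1 and Msln below the floor on every array. Their 8 signals summed to 195 to 368 in mesonephros-derived and 325 to 398 in ovary-derived cells. The single tested marker of oocytes, Nlrp5, stood at 0.44 ± 0.56 log2 units, that of lymphoid cells, Cd2, at 0.44 ± 0.48, and that of erythroid cells, Alas2, at −0.55 ± 0.77 (SE, limma adjusted p = 0.748, 0.697 and 0.773). Among 12 smooth muscle markers, all were higher in mesonephros-derived cells, 11 without overlap (9.56% of all genes) and 2 past the threshold (0.0342%). These 2 were Myh11 at 1.92 ± 0.18 and Tagln at 1.48 ± 0.16 log2 units (SE, limma adjusted p = 0.0277 and 0.0341). The summed signal of the 12 markers was 87669 to 105590, against 37875 to 41945 in ovary-derived cells.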
